A study of Mus musculus with 18 samples.

Results

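Mitochondrial ribosomal protein genes were described in neonatal ventricular cardiac fibroblasts of the mouse. Members were the rows of the expression table whose symbol is Mrpl or Mrps followed by digits and at most 1 letter, with a mean of at least 1 FPKM over all 18 libraries. All 78 symbols of that form passed the level, so the family comprised 78 of 18264 genes in the table. The lowest member, Mrpl14, averaged 2.70 FPKM, and no symbol of that form lay below 1 FPKM. FPKM is the number of fragments counted for a gene, scaled to its length and to the size of the library.

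Bulk RNA sequencing covered 6 groups of 3 libraries. In the knockdown arm, cells received siRNA against Foxm1 together with angiotensin II (si-Foxm1+Ang-II), angiotensin II (Ang-II), siRNA against Foxm1 (si-Foxm1) or a negative control siRNA (si-NC). In the overexpression arm, cells overexpressed Foxm1 (OE-Foxm1) or carried its negative control (OE-NC). Foxm1 encodes a forkhead transcription factor known for driving cell cycle genes, and angiotensin II is a peptide hormone used to model cardiac fibrosis. The siRNA sequences, the overexpression vector, the angiotensin II dose and the times of harvest were not stated in the labels, nor was it stated whether Ang-II cells also received a control siRNA. The labels also do not say whether the libraries of a group came from separate cultures or animals, so p-values measure only the spread between these libraries, which may be technical. In bulk RNA, fewer cells of a type and less RNA per cell cannot be told apart.

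Mitochondria keep their own ribosome, which translates the few messages of the mitochondrial genome, all of them core subunits of the respiratory chain or the ATP synthase. Every protein of this ribosome is encoded in the nucleus, made on cytosolic ribosomes and imported. It has a large subunit, which forms peptide bonds, and a small subunit, which decodes, and its proteins include descendants of bacterial ribosomal proteins and proteins that bacteria lack. Of the members, 51 belong to the large subunit and 26 to the small subunit, with Mrps30 and Mrps18a counted in the large subunit, where structures place them. Mrps36 was not placed, because its protein is now known as a component of the 2-oxoglutarate dehydrogenase complex. By the structural nomenclature, 46 members have a bacterial counterpart and 31 are specific to mitochondria.

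Recovered library totals lay between 14988993 and 19343343 counts, with an OE-NC library lowest. Ang-II replicate 3 stood apart from the other libraries of its group, with a mean chi-square per gene of 5.09 and 5.52 against them, where the other pairs within groups lay between 1.69 and 2.88. Fibroblast collagens were present throughout, but so were cardiomyocyte markers, whose sum over 12 genes lay between 4927 and 11280 FPKM per library, and no marker of any list was at 0 in a library. Foxm1 had 6.06, 5.13 and 6.71 FPKM in si-Foxm1 libraries, against 10.4, 9.64 and 10.3 FPKM in si-NC libraries. It had 399, 480.0 and 487 FPKM in OE-Foxm1 libraries, against 15.7, 17.1 and 17.1 FPKM in OE-NC libraries. Foxm1 was also lower in Ang-II libraries, at 4.23, 4.03 and 5.65 FPKM, than in si-NC libraries, and it had 3.55, 3.36 and 3.03 FPKM in si-Foxm1+Ang-II libraries.

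Upstream sequences of 5 members are printed because these genes, 3 that rose and 2 that fell under the siRNA as described below, differ in the motifs marked in the bases shown. RefSeq promoter windows of GRCm38.p6, 250 bases before to 50 after the start, matched 69 of the 78 members by symbol and gave 75 windows. Motif counts used these whole windows, so matches in the 50 bases after the start are counted but not shown. The 250 bases before the start are shown 5′ to 3′ on the gene's strand. Capitals mark matches, on either strand, to motifs of NRF1 (GCGCATGC) and of ETS factors such as GABPA (CCGGAAG), which regulate nuclear genes of mitochondrial function.
Mrps23, chr11:88204138-88204387, plus strand: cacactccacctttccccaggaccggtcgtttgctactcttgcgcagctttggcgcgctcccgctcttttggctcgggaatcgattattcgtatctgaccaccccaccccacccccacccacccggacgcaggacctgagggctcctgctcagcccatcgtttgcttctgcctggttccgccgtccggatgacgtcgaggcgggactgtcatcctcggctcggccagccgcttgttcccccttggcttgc
Mrps27, chr13:99344536-99344785, plus strand: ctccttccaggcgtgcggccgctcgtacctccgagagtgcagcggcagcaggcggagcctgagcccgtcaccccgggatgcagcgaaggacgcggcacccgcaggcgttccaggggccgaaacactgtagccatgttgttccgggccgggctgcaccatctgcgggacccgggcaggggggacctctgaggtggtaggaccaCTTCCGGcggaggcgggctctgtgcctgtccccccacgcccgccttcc
Mrps22, chr9:98601680-98601929, minus strand: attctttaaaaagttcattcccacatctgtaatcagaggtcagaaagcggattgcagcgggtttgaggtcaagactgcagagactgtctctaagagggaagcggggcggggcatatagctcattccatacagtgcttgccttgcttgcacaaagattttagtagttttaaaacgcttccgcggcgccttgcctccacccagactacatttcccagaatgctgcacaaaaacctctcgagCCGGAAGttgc
Mrpl42, chr10:95501950-95502199, minus strand: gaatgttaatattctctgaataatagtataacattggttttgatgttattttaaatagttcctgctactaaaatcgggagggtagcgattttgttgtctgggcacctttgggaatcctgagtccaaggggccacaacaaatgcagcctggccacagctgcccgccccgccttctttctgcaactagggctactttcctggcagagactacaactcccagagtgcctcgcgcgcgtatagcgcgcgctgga
Mrpl33, chr5:31613701-31613950, plus strand: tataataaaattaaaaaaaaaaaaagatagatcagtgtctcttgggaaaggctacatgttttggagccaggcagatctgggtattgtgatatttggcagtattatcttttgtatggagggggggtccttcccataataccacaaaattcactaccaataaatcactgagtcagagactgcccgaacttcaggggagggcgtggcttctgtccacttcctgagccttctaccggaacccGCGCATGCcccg

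The ETS motif stood in 34.7% of the member windows, against 8.86% of all 32851 windows of the table and 18% of windows of tested genes. The NRF1 motif stood in 10.7% of member windows, 2.71% of all windows and 5.41% of windows of tested genes. A YY1 motif (AAGATGGC) stood in 16% of member windows, 2.75% of all windows and 4.56% of windows of tested genes. A forkhead core (TGTTTA), the kind of site Foxm1 itself can bind, stood in 5.33% of member windows, 13.4% of all windows and 8.42% of windows of tested genes. The cell cycle homology region letters (TTTGAA) stood in 17.3% of member windows, 17.9% of all windows and 11.8% of windows of tested genes, and the E-box (CACGTG) in 9.33%, 7.15% and 10.3%. These motifs were searched on both strands and do not contain one another. They are descriptions of letters in a window. In si-Foxm1 against si-NC the 26 members with an ETS match had a median log2 fold change of 0.15. The 43 members without one had 0.29. Medians with and without a match were 0.26 and 0.24 for NRF1, 0.22 and 0.25 for YY1 and 0.12 and 0.24 for the E-box. For the forkhead core, held by 4 members, they were 0.32 and 0.24, and for the TTTGAA letters 0.24 and 0.26. These differences were not tested.

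Summed over the 78 genes, the level was 2544, 2549 and 2492 FPKM in si-Foxm1 libraries, against 2188, 2251 and 2158 FPKM in si-NC libraries. It was 2385, 2376 and 2317 FPKM in si-Foxm1+Ang-II libraries, 2028, 2037 and 2063 FPKM in Ang-II libraries, 2348, 2321 and 2289 FPKM in OE-Foxm1 libraries and 2378, 2299 and 2299 FPKM in OE-NC libraries. In FPKM as deposited, without rescaling, the si-Foxm1 libraries were the highest and the Ang-II libraries the lowest, and neither overlapped another group. Between them, the 2 overexpression-arm groups and si-Foxm1+Ang-II overlapped, and si-NC lay below these. The members took 0.689% to 0.703% of all FPKM in si-Foxm1 libraries, against 0.605% to 0.620% in si-NC libraries. Gene by gene, 46 members had their highest group mean in si-Foxm1 and 51 had their lowest in Ang-II. These counts are not set beside those of all genes. Of all tested genes, 48.5% were called higher in si-Foxm1 and 29.2% lower in Ang-II, each against si-NC. The ranking also spans both arms, which have different controls. The ratio of the highest to the lowest group mean lay between 1.11, for Mrps17, and 1.90, for Mrpl45.

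**Figure D1:**
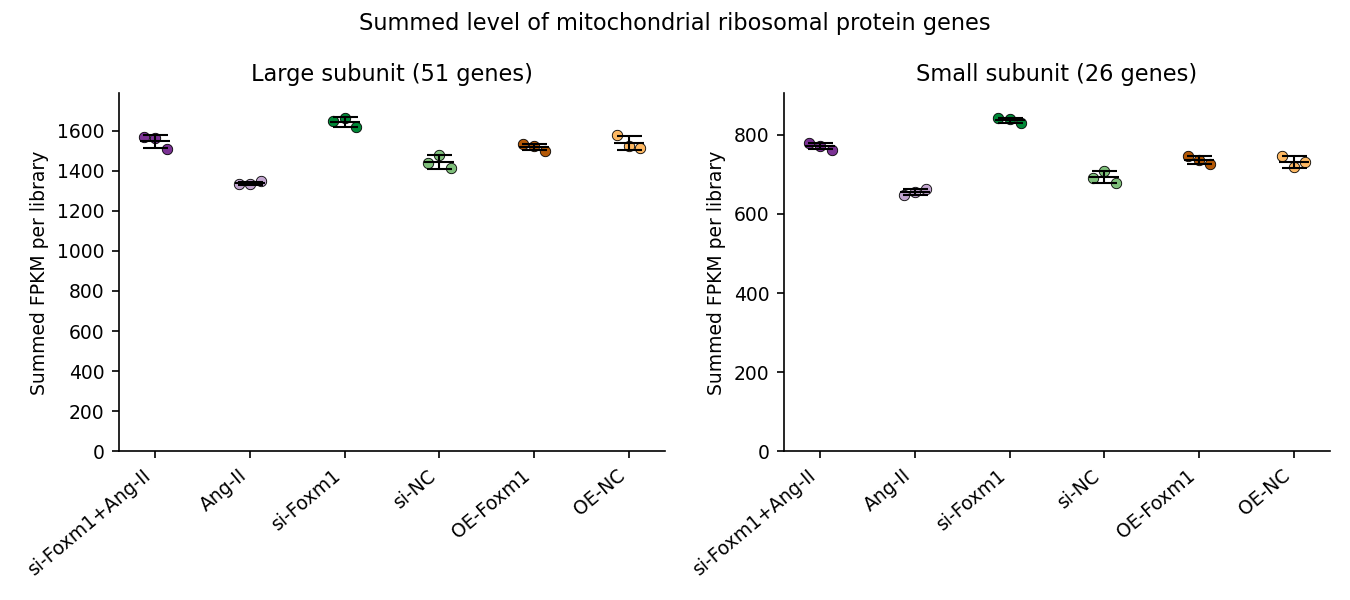
Summed FPKM of the 51 large-subunit genes (left) and the 26 small-subunit genes (right) in each library, with points for libraries and bars for mean and SD of 3. In both panels the si-Foxm1 libraries are highest and the Ang-II libraries lowest, while the OE-Foxm1 and OE-NC libraries overlap. The sums are of FPKM as deposited, not rescaled.

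Levels within the family spanned a wide range. Mrpl42 was the most abundant member, with a mean of 116 FPKM over the 18 libraries, followed by Mrpl12 at 103, Mrpl33 at 97.8 and Mrps21 at 84.1 FPKM. Mrpl14, Mrps25, Mrpl1 and Mrpl19 were the least abundant, at 2.70, 4.09, 4.57 and 5.26 FPKM. Gene lengths recovered from the table had a median of 1412.5 bases among members. They ran from 412 bases in Mrpl52 to 8707 bases, and the least abundant members had long models, 7525 bases for Mrpl14 and 5016 bases for Mrpl19. Every member had at least 235 counts in each library, the fewest for Mrpl47.

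The first question was how the family responded to Foxm1 siRNA without angiotensin II, against the negative control siRNA. In si-Foxm1 cells 56 of the 78 genes rose and 5 fell (limma on log2(FPKM+1), Benjamini-Hochberg adjusted p under 0.05). Over all 11180 genes tested, 48.5% were called higher and 17.2% lower, so the members' 71.8% and 6.41% are to be read against a transcriptome that itself shifted upward. The median log2 fold change was 0.24 for the members and 0.11 for all tested genes. After median-of-ratios scaling, which set the median of all genes to 0.00, the member median was 0.12, and 38 members were called higher and 9 lower, where all tested genes had 26.5% and 29.3%. With quantile normalization 43 were higher and 8 lower, where all tested genes had 30.7% and 26.6%. The summed level was 15.0% higher in si-Foxm1 cells.

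Both subunits moved. In the large subunit 38 of 51 genes rose and 3 fell, with a median of 0.24, and in the small subunit 18 of 26 rose and 1 fell, with a median of 0.23. The mitochondria-specific proteins of the small subunit had the highest median of the 4 classes by subunit and origin, 0.37, with 8 of 10 genes higher and 0 lower, against a median of 0.20 for the 16 small-subunit genes with a bacterial counterpart. The stalk, where translation factors dock, had all 3 of its genes higher (Mrpl10, Mrpl11 and Mrpl12). The central protuberance, a landmark of the large subunit that contacts the small one, had 4 of 5 genes higher, as had the proteins around the exit tunnel, but after median-of-ratios scaling these counts were 2 and 1 of 5. Counted for the protuberance were Mrpl18, Mrpl38, Mrpl40, Mrpl46 and Mrpl48, and for the tunnel Mrpl22, Mrpl23, Mrpl24, Mrpl45 and Mrpl47. These chosen lists need not be complete. Exons of Mrpl18, Mrpl46 and Mrpl48 (protuberance) and of Mrpl24 and Mrpl47 (tunnel) overlap other genes on the opposite strand, so their values are uncertain. Among members, log2 fold change and gene length had a Spearman rho of 0.29 across the 78 genes, where all tested genes gave -0.08.

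Mrps23, a small-subunit protein that bacteria lack, had the largest rise. It had 80.6, 81.9 and 75.4 FPKM in si-Foxm1 libraries, against 44.9, 48.1 and 47.6 FPKM in si-NC libraries. The groups lay far apart, with a log2 fold change of 0.75 ± 0.036 (SE, limma adjusted p = 1.82e-09). Mrpl45, which sits at the exit tunnel and anchors the ribosome to the inner membrane, had 19.2, 19.3 and 18.6 FPKM in si-Foxm1 libraries, against 11.5, 11.3 and 11.1 FPKM in si-NC libraries. All si-Foxm1 libraries were above all si-NC libraries, and the log2 fold change was 0.70 ± 0.034 (SE, limma adjusted p = 1.56e-09). Mrps27, a pentatricopeptide repeat protein of the small subunit, had 25.6, 25.5 and 24.1 FPKM in si-Foxm1 libraries, against 15.5, 15.7 and 15.7 FPKM in si-NC libraries. The si-NC libraries barely differed from each other, and the log2 fold change was 0.65 ± 0.032 (SE, limma adjusted p = 1.98e-09).

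The next rises were of a similar kind. Mrpl46, a central protuberance protein, averaged 24.97 ± 1.53 FPKM in si-Foxm1 cells and 15.7 ± 1.14 FPKM in si-NC cells (SD, n = 3 each), a log2 fold change of 0.64, but its exons overlap those of Mrps11 on the opposite strand. Mrps22, whose human counterpart is a mitochondrial disease gene, averaged 28.9 ± 1.10 FPKM in si-Foxm1 cells and 18.5 ± 1.55 FPKM in si-NC cells, a log2 fold change of 0.62. Mrpl50, specific to mitochondria, averaged 26.7 ± 1.41 FPKM in si-Foxm1 cells and 18.6 ± 0.961 FPKM in si-NC cells, a log2 fold change of 0.50. All 3 passed the limma test, with adjusted p between 2.35e-07 and 1.77e-06. Mrpl12, the stalk protein homologous to bacterial L7/L12, had 129, 135 and 129 FPKM in si-Foxm1 libraries, against 93.6, 95.2 and 90.2 FPKM in si-NC libraries, a log2 fold change of 0.49 (limma adjusted p = 8.98e-08). As the second most abundant member, it added more to the summed difference than Mrps23.

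The 5 genes that fell included the most abundant member and the protein no longer placed in the ribosome. Mrps36 had 50.6, 46.3 and 44.7 FPKM in si-Foxm1 libraries, against 59.7, 62.6 and 64.0 FPKM in si-NC libraries. Its groups did not overlap, and the log2 fold change was -0.39 ± 0.052 (SE, limma adjusted p = 2.00e-05). Mrps2, the counterpart of bacterial S2, had 10.4, 11.02 and 10.5 FPKM in si-Foxm1 libraries, against 12.8, 15.0 and 13.7 FPKM in si-NC libraries, a log2 fold change of -0.35 ± 0.050 (SE, limma adjusted p = 3.81e-05). Mrpl42, a mitochondria-specific large-subunit protein, had 106, 110.2 and 106 FPKM in si-Foxm1 libraries, against 131, 137 and 127 FPKM in si-NC libraries, a log2 fold change of -0.29 ± 0.043 (SE, limma adjusted p = 6.00e-05). In each of these genes every si-Foxm1 library lay below every si-NC library. Mrpl19 and Mrpl33, counterparts of bacterial L19 and L33, fell by less, with log2 fold changes of -0.14 and -0.13 (limma adjusted p = 0.0149 and 0.0189). Both calls were lost when si-NC replicate 2 was left out, and then 3 of the members were called lower. Mrpl19 also lost its call without si-Foxm1 replicate 3, and Mrpl33 without si-Foxm1 replicate 2.

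**Figure D2:**
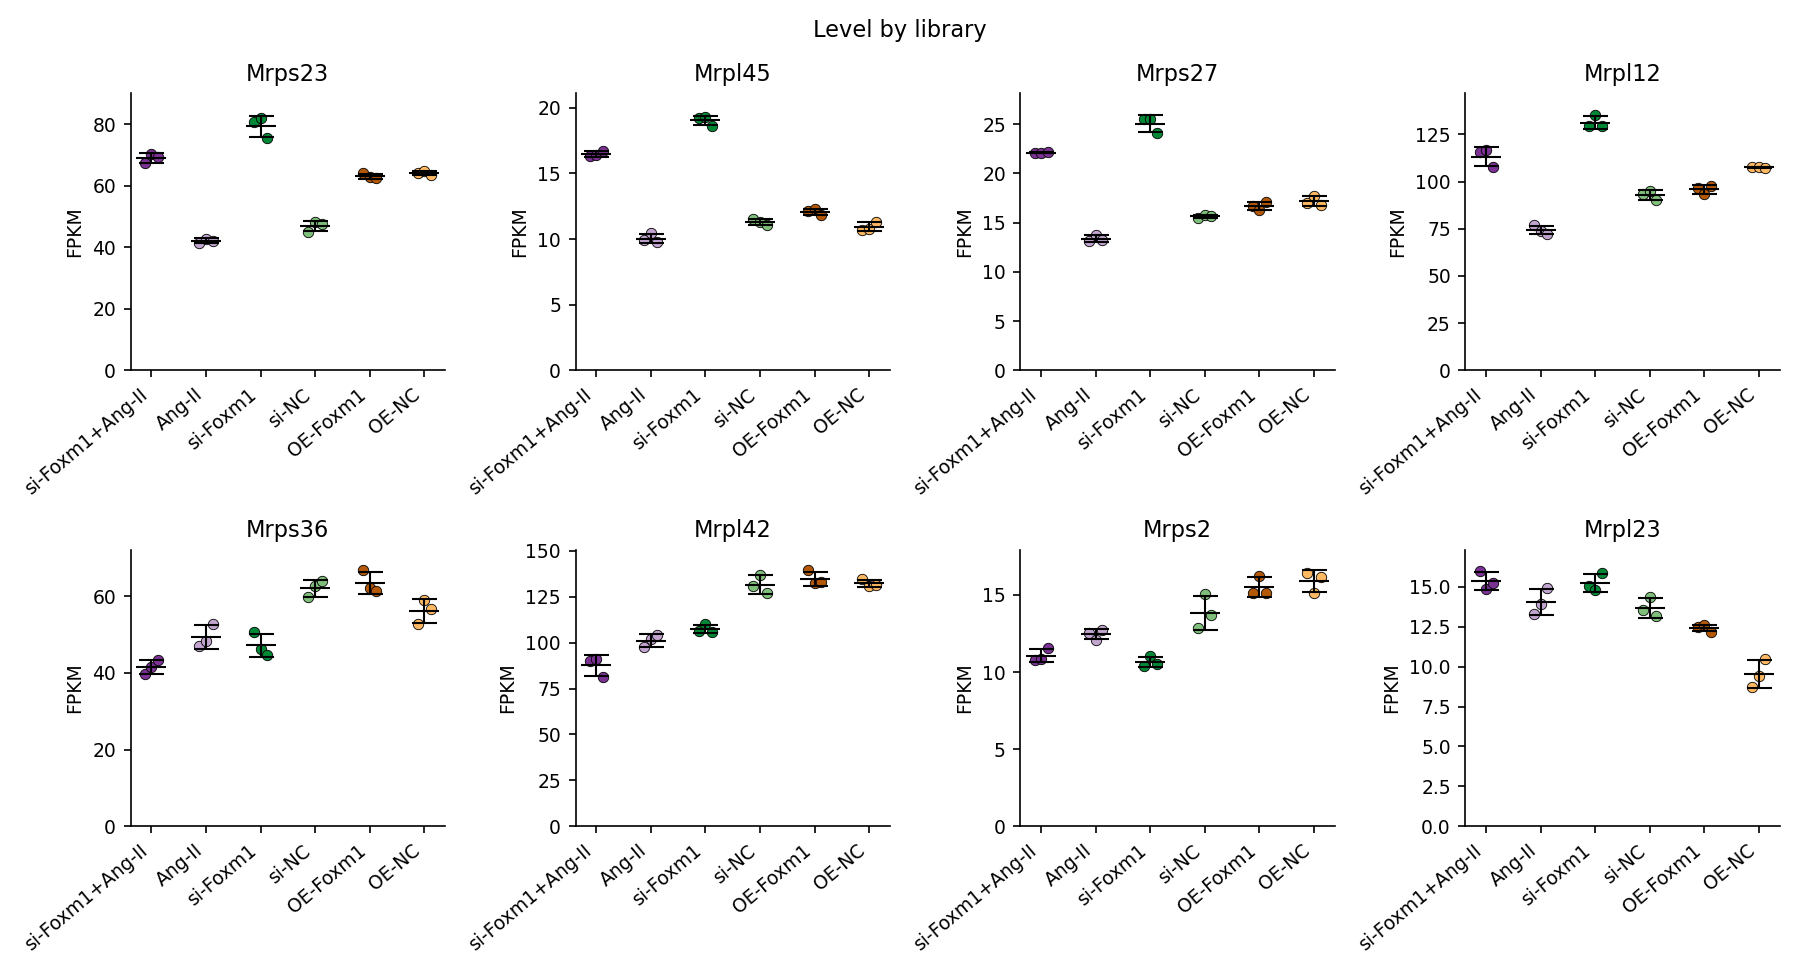
FPKM of 8 members in each library, with points for libraries and bars for mean and SD of 3 per group. Mrps23, Mrpl45, Mrps27 and Mrpl12 are higher in both siRNA groups than in the groups without Foxm1 siRNA beside them, Mrps36, Mrpl42 and Mrps2 are lower, and Mrpl23 separates OE-Foxm1 from OE-NC.

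The same question was put under angiotensin II, with si-Foxm1+Ang-II set against Ang-II, in libraries that the comparison above did not use. There 57 members rose and 4 fell, where 44% of all tested genes were called higher and 17.4% lower. The median log2 fold change was again 0.24, against 0.09 for all tested genes, and 0.14 after median-of-ratios scaling, with 44 members higher and 8 lower, where all tested genes had 27.5% and 28%. With quantile normalization 47 were higher and 6 lower, where all tested genes had 29.8% and 25.8%. Without Ang-II replicate 3, the library that stood apart, 56 were higher and 3 lower. The summed level, in FPKM as deposited, was 15.5% higher in si-Foxm1+Ang-II cells. Median-of-ratios factors were 1.03, 1.01 and 1.01 in si-Foxm1+Ang-II libraries and 0.946, 0.942 and 0.958 in Ang-II libraries. Dividing by them would narrow this difference. Mrps23 had 67.3, 70.3 and 69.3 FPKM in si-Foxm1+Ang-II libraries, against 41.2, 42.8 and 42.1 FPKM in Ang-II libraries, a log2 fold change of 0.70 ± 0.036 (SE, limma adjusted p = 3.23e-09). Mrps27 had 22.1, 22.1 and 22.2 FPKM in si-Foxm1+Ang-II libraries, against 13.1, 13.8 and 13.2 FPKM in Ang-II libraries, a log2 fold change of 0.68 ± 0.032 (SE, limma adjusted p = 1.15e-09). Mrpl45 averaged 16.5 FPKM in si-Foxm1+Ang-II cells and 10.04 FPKM in Ang-II cells, and Mrps22 averaged 25.4 FPKM in si-Foxm1+Ang-II cells and 16.1 FPKM in Ang-II cells. Mrpl12 had 116, 117 and 107 FPKM in si-Foxm1+Ang-II libraries, against 76.8, 73.7 and 72.3 FPKM in Ang-II libraries, a log2 fold change of 0.60 ± 0.036 (SE, limma adjusted p = 1.47e-08).

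Most calls were shared between the 2 siRNA comparisons, among members as among all tested genes. Of the members called higher, 51 were shared, which is 91.1% of the calls without angiotensin II and 89.5% of those with it, where all tested genes shared 80.6% and 88.8%. Another 4 were lower in both (Mrps36, Mrps2, Mrpl42 and Mrpl33). Across the 78 genes the log2 fold changes of the 2 comparisons had a Pearson r of 0.91, as had all 11180 tested genes, and no member was called in opposite directions. Mrps36 had 39.7, 41.6 and 43.3 FPKM in si-Foxm1+Ang-II libraries, against 47.0, 48.4 and 52.8 FPKM in Ang-II libraries (log2 fold change -0.24, limma adjusted p = 0.00109). Mrpl42 had 90.0, 91.4 and 81.3 FPKM in si-Foxm1+Ang-II libraries, against 97.4, 102 and 104 FPKM in Ang-II libraries (log2 fold change -0.21, limma adjusted p = 0.00102). Mrps2 and Mrpl33 fell by 0.16 and 0.13 on the log2 scale, with limma adjusted p of 0.0141 and 0.0215, and each call was lost when a library was left out (Mrps2 without si-Foxm1+Ang-II replicate 1, Mrpl33 without si-Foxm1+Ang-II replicate 3 or without Ang-II replicate 2 or 3).

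**Figure D3:**
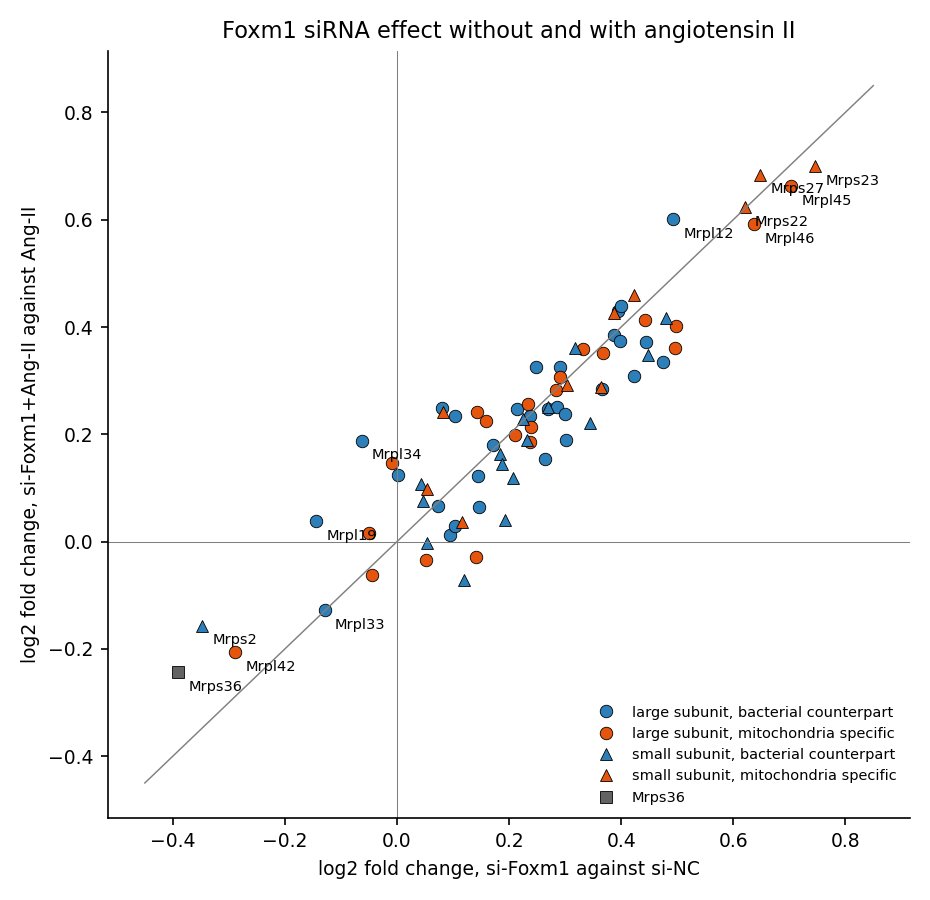
Log2 fold change of each member in si-Foxm1+Ang-II against Ang-II (vertical) and in si-Foxm1 against si-NC (horizontal), with marker shape for the subunit and colour for the presence of a bacterial counterpart; the diagonal marks equal values. The points lie along the diagonal, with Mrps23, Mrpl45, Mrps27, Mrps22 and Mrpl46 at the upper end and Mrps36, Mrps2 and Mrpl42 at the lower end.

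Whether angiotensin II altered the response to the siRNA was tested as an interaction. In limma, 0 members were called higher and 0 lower, where 0.403% and 0.519% of all tested genes were called. Another 9 members had an unadjusted limma p under 0.05. That count is not set beside the share of all tested genes, so it is not read as a result. Voom on the recovered counts also called 0. The estimated differences ran from -0.19 to 0.25 on the log2 scale. The largest was that of Mrpl34, the counterpart of bacterial L34, at 0.25 ± 0.064 (SE, limma adjusted p = 0.0841). It had 51.0, 49.1 and 47.4 FPKM in si-Foxm1+Ang-II libraries and 40.5, 42.4 and 46.4 FPKM in Ang-II libraries, while si-Foxm1 libraries had 52.8, 52.0 and 55.5 FPKM and si-NC libraries 54.3, 56.7 and 56.5 FPKM. After median-of-ratios scaling this difference was 0.28, with a limma adjusted p of 0.0479, and 1 member was called higher and 0 lower, where all tested genes had 0.59% and 0.438%. Without Ang-II replicate 3 the count was also 1.

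Angiotensin II without siRNA went with lower levels of some members. In Ang-II against si-NC, 29 members fell and 1 rose, where 29.2% of all tested genes were called lower and 15.2% higher. The members' 37.2% lower is close to that background. The member median was -0.09 and that of all tested genes -0.03. After median-of-ratios scaling, 17 members were lower and 7 higher, or 21.8% lower where all tested genes had 22.9% lower and 20.7% higher. Quantile normalization also gave 17 lower and 7 higher, where all tested genes had 20.5% and 24%. Without si-NC replicate 2 the count was 19 lower and 2 higher, and without Ang-II replicate 3 it was 29 lower and 2 higher. Leaving out Ang-II replicate 1 or 2 also gave 2 higher. The summed level, in FPKM as deposited, was 7.11% lower in Ang-II cells, a difference that median-of-ratios scaling would also narrow.

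Mrpl42 had 97.4, 102 and 104 FPKM in Ang-II libraries, against 131, 137 and 127 FPKM in si-NC libraries, a log2 fold change of -0.38 ± 0.043 (SE, limma adjusted p = 9.81e-06). Mrpl34 had 40.5, 42.4 and 46.4 FPKM in Ang-II libraries, against 54.3, 56.7 and 56.5 FPKM in si-NC libraries, a log2 fold change of -0.37 ± 0.045 (SE, limma adjusted p = 1.65e-05). Mrpl12 had 76.8, 73.7 and 72.3 FPKM in Ang-II libraries, against 93.6, 95.2 and 90.2 FPKM in si-NC libraries, a log2 fold change of -0.32 ± 0.036 (SE, limma adjusted p = 8.56e-06). In these genes the groups did not overlap. Mrps36 fell by 0.33, Mrpl18, a central protuberance protein, by 0.27 and Mrps35, specific to mitochondria, by 0.24 on the log2 scale (limma adjusted p = 0.000166, 0.000479 and 0.00315). The riser was Mrpl36, the counterpart of bacterial L36, with 33.0, 30.7 and 33.1 FPKM in Ang-II libraries, against 28.5, 29.3 and 29.5 FPKM in si-NC libraries (log2 fold change 0.14, limma adjusted p = 0.0081). Exons of Mrpl36 overlap those of Ndufs6 on the opposite strand, and exons of Mrpl18 overlap those of Tcp1.

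With Foxm1 lowered, angiotensin II gave counts of the same kind. In si-Foxm1+Ang-II against si-Foxm1, 36 members fell and 2 rose, where 34.6% of all tested genes were called lower and 12.9% higher, so that the members' share was 46.2% lower against a background that also leaned down. This order turned under both other scalings. The median was -0.10 for the members and -0.07 for all tested genes, and after median-of-ratios scaling 10 members (12.8%) were lower and 8 (10.3%) higher, where all tested genes had 21.8% and 20.6%. With quantile normalization 15 (19.2%) were lower and 9 (11.5%) higher, where all tested genes had 20.8% and 21.7%. Without si-Foxm1+Ang-II replicate 3 the count was 24 lower and 4 higher. Of the members lower in Ang-II against si-NC, 22 were also lower here, 75.9% of the 29 and 61.1% of the 36, where all tested genes shared 83.3% and 70.3%. The Pearson r of the log2 fold changes between these 2 comparisons, which share no library, was 0.64 across members and 0.89 across all tested genes. Mrpl18 had 16.5, 17.1 and 16.3 FPKM in si-Foxm1+Ang-II libraries, against 20.9, 22.3 and 21.4 FPKM in si-Foxm1 libraries, a log2 fold change of -0.35 ± 0.049 (SE, limma adjusted p = 4.95e-05). Mrpl42 and Mrpl12 fell by 0.29 and 0.21 on the log2 scale (limma adjusted p = 9.07e-05 and 0.00031), and Mrps18a and Mrpl51 by 0.24 each. The risers were Mrpl52, a short mitochondria-specific protein, with 95.1, 91.6 and 93.7 FPKM in si-Foxm1+Ang-II libraries, against 78.7, 84.8 and 80.8 FPKM in si-Foxm1 libraries, and Mrps18b, with a log2 fold change of 0.15 (limma adjusted p = 0.00356 and 0.0084).

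In FPKM as deposited, the 3 paralogs of the S18 family did not share 1 pattern of calls. Mrps18a, which sits in the large subunit, was called in all 5 group comparisons: higher in si-Foxm1 (0.21) and si-Foxm1+Ang-II (0.20) against the groups without siRNA, lower with angiotensin II (-0.23 without siRNA and -0.24 with it) and lower in OE-Foxm1 (-0.21). Mrps18b was called higher in si-Foxm1+Ang-II against both Ang-II (0.24) and si-Foxm1 (0.15), and its log2 fold change in si-Foxm1 against si-NC was 0.08 (limma adjusted p = 0.104). Mrps18c was called lower in si-Foxm1+Ang-II against si-Foxm1 (-0.20, limma adjusted p = 0.00808) and in no other comparison. Mrpl58 is a peptidyl-tRNA hydrolase that rescues stalled ribosomes and is also built into the large subunit. Against si-NC it rose in si-Foxm1 by 0.16 and fell in Ang-II by 0.23 on the log2 scale (limma adjusted p = 0.0117 and 0.0019). Its values are also from FPKM as deposited. Median-of-ratios factors were higher in si-Foxm1 libraries and lower in Ang-II libraries than in si-NC libraries. Dividing by them would shrink both shifts of Mrpl58, and those of Mrps18a in the same comparisons. Whether these calls against si-NC hold after that scaling is not given here.

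The overexpression arm asked what raising Foxm1 did, against its own control. In OE-Foxm1 cells 15 members rose and 17 fell, 19.2% and 21.8%, where 27.1% of all 11259 genes tested were called higher and 28% lower. Both shares lay below those of all tested genes, and the median was -0.01 for the members and -0.00 for all tested genes. The summed level was 2319 ± 29.2 FPKM in OE-Foxm1 cells and 2326 ± 45.6 FPKM in OE-NC cells (SD, n = 3 each), with overlapping libraries. Mrpl23, an exit tunnel protein, rose most, with 12.5, 12.6 and 12.2 FPKM in OE-Foxm1 libraries, against 8.70, 9.43 and 10.5 FPKM in OE-NC libraries, a log2 fold change of 0.35 ± 0.058 (SE, limma adjusted p = 0.000483). Mrpl27, which in bacteria lies close to the peptidyl transferase centre, Mrpl57, specific to mitochondria, and Mrps12, a decoding centre protein, rose by 0.25, 0.24 and 0.23 on the log2 scale (limma adjusted p = 0.000508, 0.000606 and 0.00267).

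The falls under overexpression included the central protuberance, where 4 of the 5 listed genes were lower and 0 higher. Of all tested genes, 28% were lower. The 5 are the chosen list given above, which need not hold every protein of the protuberance. Mrpl38, a member of it, had 31.1, 32.7 and 32.3 FPKM in OE-Foxm1 libraries, against 42.6, 40.5 and 39.1 FPKM in OE-NC libraries, a log2 fold change of -0.34 ± 0.038 (SE, limma adjusted p = 4.33e-05). Mrpl46, another, averaged 17.4 ± 0.656 FPKM in OE-Foxm1 cells and 21.3 ± 0.231 FPKM in OE-NC cells (SD, n = 3 each), a log2 fold change of -0.28 (limma adjusted p = 0.000121). Mrps5, the counterpart of bacterial S5, had 23.8, 19.8 and 23.2 FPKM in OE-Foxm1 libraries, against 28.4, 27.3 and 28.2 FPKM in OE-NC libraries, a log2 fold change of -0.32 ± 0.059 (SE, limma adjusted p = 0.00103). Mrpl3, the counterpart of bacterial L3, averaged 6.98 ± 0.051 FPKM in OE-Foxm1 cells and 8.45 ± 0.110 FPKM in OE-NC cells, a log2 fold change of -0.24 (limma adjusted p = 0.000536). In these 4 genes no OE-Foxm1 library reached an OE-NC library. Of the central protuberance genes, Mrpl18, Mrpl46 and Mrpl48 have exons overlapping other genes on the opposite strand, so their values are uncertain.

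Set beside the siRNA comparison, which used other libraries, overexpression did not mirror it across the family. Of the 56 members higher in si-Foxm1, 14 were lower in OE-Foxm1 and 9 were higher, and the rest were not called there. These are 25% and 16.1% of them, where 32.2% and 22.1% of all genes higher in si-Foxm1 were lower and higher in OE-Foxm1. The 14 included Mrpl12, Mrpl38, Mrpl44, Mrpl46, Mrps5 and Mrps22, and the 9 included Mrpl45, Mrpl23 and Mrpl27. Of the 5 members lower in si-Foxm1, Mrps36 and Mrpl33 were higher in OE-Foxm1 and Mrpl19 was lower. Mrps23 and Mrps27, among the largest siRNA rises, had log2 fold changes of -0.02 and -0.04 in OE-Foxm1 and were not called. Across the 78 genes the log2 fold changes of the 2 comparisons had a Pearson r of -0.22, where all 11021 genes tested in both had -0.13.

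**Figure D4:**
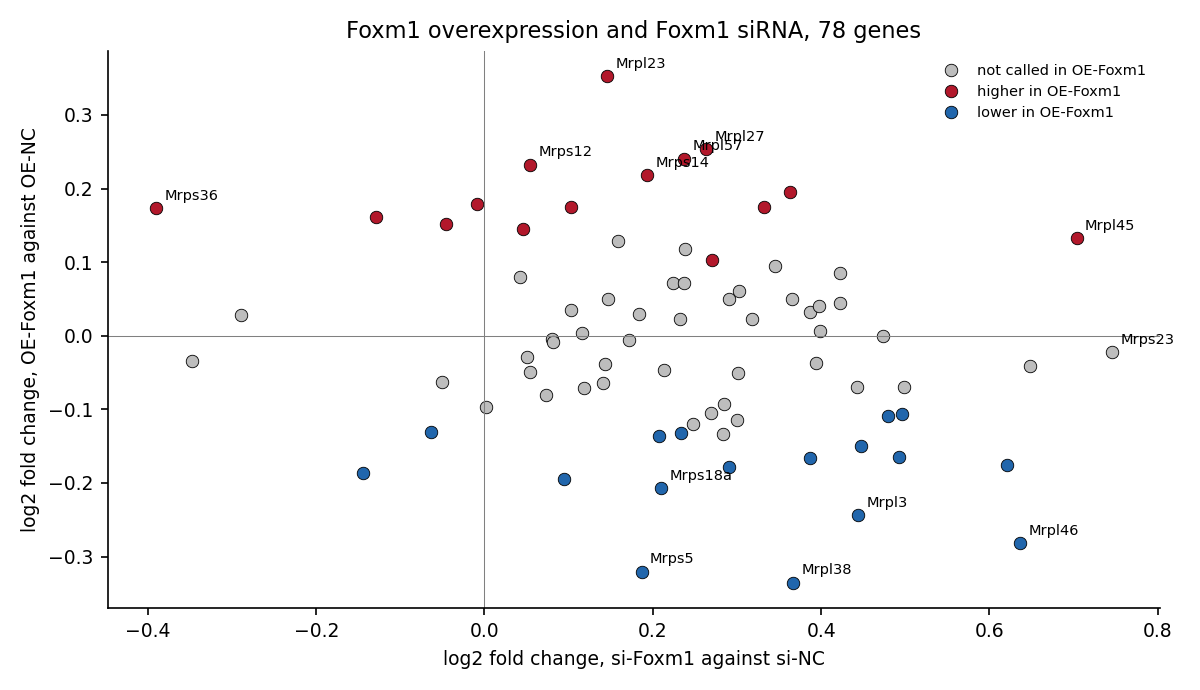
Log2 fold change of each member in OE-Foxm1 against OE-NC (vertical) and in si-Foxm1 against si-NC (horizontal), coloured by the call in OE-Foxm1. Of the 56 siRNA risers, to the right of 0, 14 are lower and 9 are higher in OE-Foxm1, while Mrps36 and Mrpl33 lie to the left of 0 and are higher in OE-Foxm1 and Mrpl19 lies to the left and is lower.

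The members were next set beside 2 families that serve the same machinery. The cytosolic ribosomal proteins, which make the ribosome of the cytoplasm, had a median log2 fold change of 0.08 in si-Foxm1 against si-NC, with 38 of 79 genes higher and 1 lower, but this direction turned after median-of-ratios scaling, with a median of -0.05, 2 higher and 27 lower. The members' median was above that family's under FPKM as deposited, median-of-ratios scaling and quantile normalization. Under angiotensin II the 2 kinds of ribosome had unlike counts. In Ang-II against si-NC 66 of 79 cytosolic genes were higher and 0 lower, against 1 higher and 29 lower among the mitochondrial members. Median-of-ratios scaling gave 75 and 0 for the cytosolic genes. Among the members it kept 17 of the 29 lower calls and the 1 higher call, and 6 more became higher. Of all tested genes, 20.7% were then higher and 22.9% lower. The subunits of respiratory complex I, some of whose partners the mitochondrial ribosome makes, had 25 of 37 genes higher and 2 lower in si-Foxm1 against si-NC, or 11 and 9 after median-of-ratios scaling. In Ang-II against si-NC 33 of the 37 were lower and 0 higher, with a median of -0.22, a larger shift than the -0.09 of the members. Of all tested genes, 29.2% were lower and 15.2% higher there. These angiotensin II values of complex I are from FPKM as deposited. Differences between these families were not tested.

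**Figure D5:**
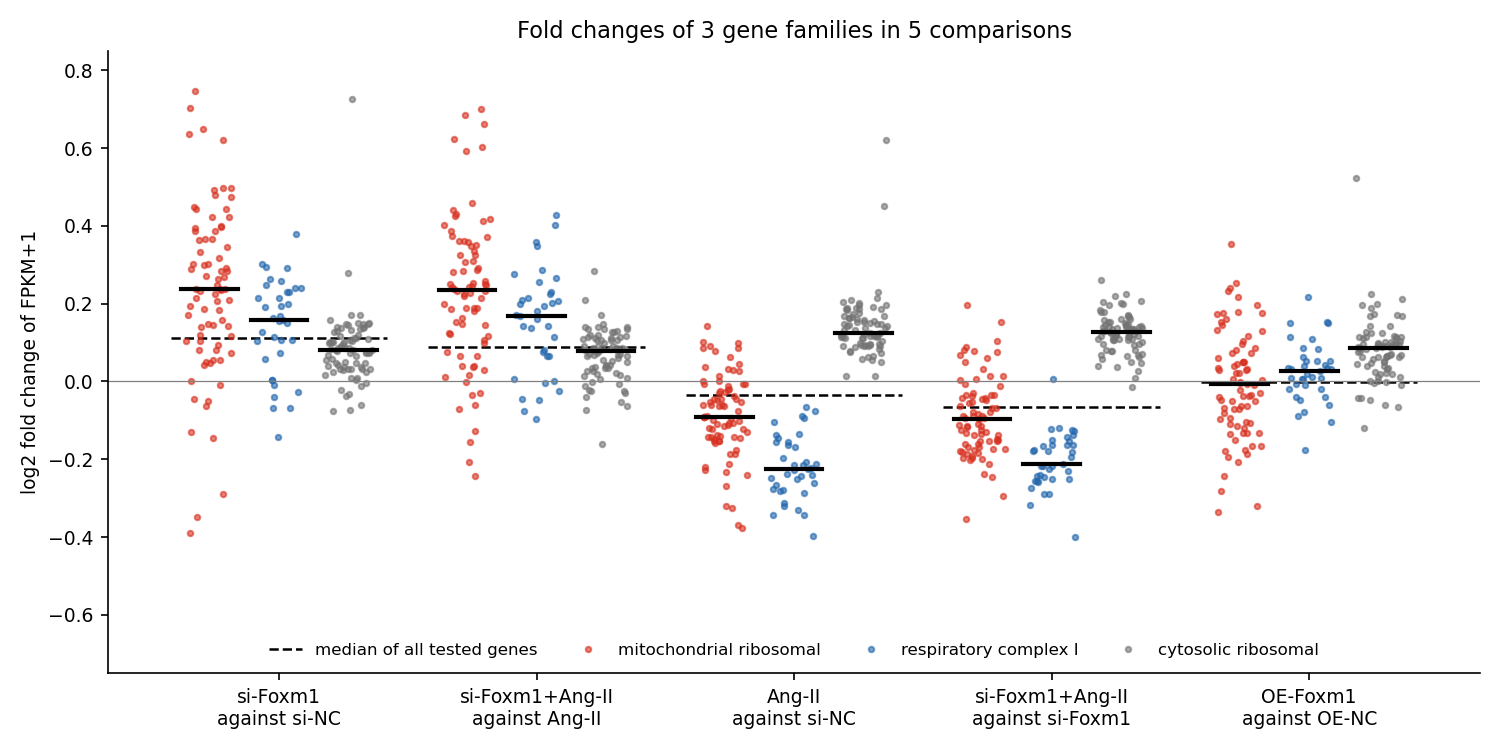
Log2 fold change of FPKM+1 for genes of the mitochondrial ribosome, of respiratory complex I and of the cytosolic ribosome in 5 comparisons, with a solid bar at each family's median and a dashed line at the median of all tested genes; 2 points lie outside the axis. The median of the mitochondrial ribosomal genes lies above the dashed line in both siRNA comparisons, and that of the cytosolic ribosomal genes lies above it in both angiotensin II comparisons.

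Genes that build or serve the mitochondrial ribosome were counted in the same siRNA comparison, where 48.5% of all tested genes were higher and 17.2% lower. Of its proteins that carry other symbols, 4 of 5 were higher and 0 lower in si-Foxm1 against si-NC. Ptcd3, a pentatricopeptide repeat protein of the small subunit, averaged 26.6 ± 1.70 FPKM in si-Foxm1 cells and 15.3 ± 0.253 FPKM in si-NC cells (SD, n = 3 each), a log2 fold change of 0.75 (limma adjusted p = 6.93e-09). Among assembly and rRNA modification factors 17 of 25 were higher and 1 lower. Fastkd2, which binds the large-subunit rRNA, and Mettl15, an rRNA methyltransferase, rose by 0.57 and 0.70 on the log2 scale, and Nsun4, an assembly factor and rRNA methyltransferase, fell by 0.46. Among translation factors and messenger stability proteins 11 of 13 were higher and 1 lower, with Taco1, known in humans as an activator of cytochrome oxidase translation, at 20.8 ± 0.458 FPKM in si-Foxm1 cells and 12.8 ± 0.629 FPKM in si-NC cells. Among mitochondrial aminoacyl-tRNA synthetases 11 of 16 were higher and 1 lower. After median-of-ratios scaling, with 26.5% of all tested genes higher, the counts higher were 2 of the 5 proteins under other symbols, 11 of the 25 assembly factors, 9 of the 13 translation factors and 8 of the 16 synthetases. No gene of the expression table matched the symbols searched for messages of the mitochondrial genome, which this ribosome translates, so they could not be described.

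Calls among regulators of mitochondrial gene expression leaned up with the siRNA and down with overexpression. Of 16 such genes, 11 were higher and 2 lower in si-Foxm1 against si-NC, where all tested genes had 48.5% and 17.2%. In OE-Foxm1 against OE-NC 0 were higher and 12 lower, where 27.1% of all tested genes were higher and 28% lower. After median-of-ratios scaling the siRNA count was 8 higher and 2 lower, where all tested genes had 26.5% and 29.3%, and the overexpression count was again 0 and 12. Tfam, which packages and transcribes mitochondrial DNA, averaged 10.3 ± 0.603 FPKM in si-Foxm1 cells and 7.64 ± 0.232 FPKM in si-NC cells (log2 fold change 0.38, limma adjusted p = 1.06e-05). The coactivator gene Ppargc1a rose by 0.49, at 4.18 ± 0.062 FPKM in si-Foxm1 cells and 2.68 ± 0.074 FPKM in si-NC cells, while its relative Ppargc1b fell by 0.81, at 2.62 ± 0.131 FPKM in si-Foxm1 cells and 5.36 ± 0.058 FPKM in si-NC cells. In OE-Foxm1 cells Myc averaged 19.3 ± 0.435 FPKM, against 29.2 ± 0.732 FPKM in OE-NC cells, and Polrmt, the mitochondrial RNA polymerase, averaged 7.40 ± 0.161 FPKM, against 9.35 ± 0.266 FPKM in OE-NC cells (limma adjusted p = 7.25e-07 and 0.000187).

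Markers of other cell types also differed in these comparisons. Of all tested genes, 48.5% were higher and 17.2% lower in si-Foxm1 against si-NC, and 44% and 17.4% in si-Foxm1+Ang-II against Ang-II. Shares were 15.2% and 29.2% in Ang-II against si-NC and 12.9% and 34.6% in si-Foxm1+Ang-II against si-Foxm1. They were 27.1% and 28% in OE-Foxm1 against OE-NC. The marker counts are from FPKM as deposited. In si-Foxm1 against si-NC, 10 of 12 cardiomyocyte markers were lower and 1 higher, with summed levels of 6484 to 6903 FPKM in si-Foxm1 libraries and 10472 to 11280 FPKM in si-NC libraries. All 8 tested macrophage and leukocyte markers were lower, with sums of 132 to 165 FPKM in si-Foxm1 libraries and 259 to 267 FPKM in si-NC libraries. Of endothelial markers 5 of 8 were higher, and of smooth muscle and pericyte markers 6 of 7 were lower. In si-Foxm1+Ang-II against Ang-II, 10 of 12 cardiomyocyte markers were lower and 2 higher, with sums of 4927 to 5076 FPKM in si-Foxm1+Ang-II libraries. All 8 macrophage and leukocyte markers were lower there too, with sums of 131 to 151 FPKM in si-Foxm1+Ang-II libraries and 317 to 345 FPKM in Ang-II libraries, as were 6 of 7 smooth muscle and pericyte markers, while 5 of 8 endothelial markers were higher and 1 lower. In Ang-II against si-NC, 11 of 12 cardiomyocyte markers were lower and 1 higher, with sums of 7875 to 8511 FPKM in Ang-II libraries. Macrophage and leukocyte markers went the other way there, with 4 of 8 higher and 0 lower, and 6 of 8 endothelial markers were lower. In si-Foxm1+Ang-II against si-Foxm1, 10 of 12 cardiomyocyte and 7 of 8 endothelial markers were lower and 0 higher, and 2 of 8 macrophage and leukocyte markers were higher and 1 lower. In OE-Foxm1 against OE-NC, 7 of the 12 were higher and 2 lower, with sums of 7313 to 7550 FPKM in OE-Foxm1 libraries and 6592 to 6882 FPKM in OE-NC libraries. Of the 8 macrophage and leukocyte markers 6 were higher and 2 lower there, with sums of 277 to 314 FPKM in OE-Foxm1 libraries and 195 to 215 FPKM in OE-NC libraries. Of fibroblast markers, 7 of 10 were higher and 1 lower in OE-Foxm1, and 2 were higher and 3 lower in si-Foxm1 against si-NC. In Ang-II against si-NC the fibroblast markers Thy1, Tcf21, Pdgfra, Dcn, Col3a1 and Ddr2 were lower. Col1a1 and Col1a2 were higher there, and Postn and Lum were not called. The part of these cells in the levels of the mitochondrial ribosomal genes was not tested.

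Exons of 21 members overlap those of another gene of the table, 19 of them on the opposite strand, and the strand setting of the authors' counting was not stated, so their values are uncertain. Among the 57 members without such an overlap, 39 rose and 4 fell in si-Foxm1 against si-NC, with a median of 0.23. Mrps23, Mrpl45, Mrps22, Mrpl12, Mrps36, Mrps2 and Mrpl42 are among these 57.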

How the data were processed

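HTSeq, HISAT2 and fastp are named in the submitters' processing notes, with build mm39; their versions and settings, the annotation and the gene lengths were not stated. Libraries were stranded mRNA preparations, per the labels' protocols. The deposited values are FPKM per gene symbol and library. Groups and replicate numbers came from the titles. The columns of the si-NC libraries are headed Ctrl in the deposited values, so the negative control siRNA is known only from their titles.

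Whole counts, totals and gene lengths were recovered from FPKM ratios (all 17960 genes above 0, within 0.02 of a whole count, which covers 100% of values). A count of 0 allows 3 counts, or 0.155 to 0.200 FPKM for a gene of 1 kb, counting error only. No libraries were duplicates.

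limma 3.58.1 (R 4.3.3) was fitted to log2(FPKM+1) with a mean-variance trend, on the 12 knockdown and the 6 overexpression libraries separately, for genes with a mean of at least 1 FPKM, with Benjamini-Hochberg adjustment over all genes tested and calls at an adjusted p under 0.05. The pseudocount understates changes of low genes. The test was checked on simulated data. Exon overlaps came from GENCODE on GRCm38, matched by symbol, and no coordinates were carried between builds. Python 3.11.15 with pandas 2.3.3 served the rest. Named in each comparison were up to 6 called members with the highest and up to 6 with the lowest fold change, the most and least abundant members and chosen paralogs. Mrpl44, Mrpl47, Mrps11, Mrps17, Mrpl10 and other members outside that rule were named after their values were seen. Members and lists were chosen with earlier results of these data known. Alternatives were the pseudocount, the filter, 2 scalings, voom, the libraries in the fit, a replicate block and leaving out libraries.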

Additional observations from a re-analysis of the deposited data

How the results depend on the processing

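The upward median of the members in both siRNA comparisons, and the downward one in both angiotensin II comparisons, kept their direction under every alternative run, but counts depended on scaling. In si-Foxm1 against si-NC, 8 members were lower and the median was 0.15 with quantile normalization, and 9 were lower with a median of 0.12 with median-of-ratios scaling; relative to all genes the median was 0.20 without a filter. In Ang-II against si-NC, 7 members were higher and 17 lower under both scalings, with medians of -0.0383 (quantile) and -0.0503 (median-of-ratios). With the siRNA tested under angiotensin II, the median was 0.25 with a pseudocount of 0.1, 0.16 (quantile), 0.14 with 8 lower (median-of-ratios) and 0.25 (voom), and relative to all genes 0.17 with the filter at 0.1 FPKM and 0.21 without one. In si-Foxm1+Ang-II against si-Foxm1, 9 were higher and 15 lower with a median of -0.0416 (quantile), and 8 higher and 10 lower with -0.0265 (median-of-ratios). The interaction called 1 member higher after median-of-ratios scaling. The cause was not tested.

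Leaving out each library in turn gave 3 to 6 lower members in si-Foxm1 against si-NC, the lowest without si-NC replicate 2. In Ang-II against si-NC it gave 1 to 2 higher, 19 to 29 lower, medians of -0.10 to -0.0656 and, relative to all genes, -0.0668 to -0.0291, with the 19 without si-NC replicate 2. Under angiotensin II the siRNA medians were 0.22 to 0.26, and 0.13 to 0.17 relative to all genes. In si-Foxm1+Ang-II against si-Foxm1 2 to 4 were higher and 24 to 39 lower, with 4 and 24 without si-Foxm1+Ang-II replicate 3. The interaction called 0 to 1 higher, the 1 without Ang-II replicate 3. In OE-Foxm1 against OE-NC 10 to 15 were higher, the 10 without OE-Foxm1 replicate 2. Among 48 named genes by comparison, 913 of the settings kept the call, 11 lost it and 0 reversed. The losses were of Mrpl19, Mrpl33 and Mrps2 under the siRNA and of Mrps35 in si-Foxm1+Ang-II against si-Foxm1 (both scalings). The 48 were picked for extreme fold changes in these data, so they do not measure how stable all calls were. Of all members' calls, median-of-ratios scaling kept 38 of 56 higher in si-Foxm1 against si-NC and 44 of 57 higher in si-Foxm1+Ang-II against Ang-II. It kept 17 of 29 lower in Ang-II against si-NC and 10 of 36 lower in si-Foxm1+Ang-II against si-Foxm1. In OE-Foxm1 against OE-NC it kept 15 of 15 higher and 17 of 17 lower. The labels pair no libraries by replicate number: 8 of 21 same-numbered pairs correlated above 0.1, from -0.04 to 0.18. With a replicate block, 57 members were higher and 5 lower in si-Foxm1 against si-NC, 58 and 4 in si-Foxm1+Ang-II against Ang-II, 1 and 30 in Ang-II against si-NC, 2 and 35 in si-Foxm1+Ang-II against si-Foxm1, and 17 and 16 in OE-Foxm1 against OE-NC.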
